A study of Mus musculus with 2 samples.

Results

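A set of 9 genes of thyroid hormone transport, conversion and response were followed in the postnatal day 3 mouse cerebellum with and without a conditional deletion of Prdm16. The 9 genes were Ttr, Slco1c1, Dio2, Dio3, Thra, Thrb, Klf9, Hr and Crym, taken from the table by symbol. All 9 were found among its 22423 genes, and all had at least 10 reads over both libraries. They were picked with their values in these libraries already known, so every difference below is a description.

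One library came from cerebellum of a Prdm16 conditional knockout (cKO) at postnatal day 3. The other came from cerebellum of a Prdm16fl/fl mouse of that age, which carries floxed Prdm16 alleles. The strain given for both is C57BL/6. The sources used here name no Cre driver, deleted exon, sex or number of pooled animals. The stated design is in triplicate, yet the table has 1 column of reads per genotype. Hence no difference here has a replicate check and no p-value of a genotype effect can be given. Each interval covers counting error only, at 95% confidence, and can be too narrow even for that, since reads are not independent molecules.

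Reads over genes numbered 17501279 in the cKO library and 18600299 in the control library. Prdm16, the targeted gene, had 118 reads in the cKO library against 315 in the control library, 2.46-fold fewer after scaling, with a log2 ratio of -1.30 (-1.62 to -0.99). All 10 granule cell markers and all 10 Purkinje cell markers had reads in both libraries. So did most genes, since 22293 of 22423 had reads in the cKO library and 22346 in the control library. Beyond counting error, 7 of the 9 granule cell markers compared were higher in the cKO library and 1 was lower (median log2 ratio 0.12). Among the 10 Purkinje cell markers, 6 were higher in that sense and 1 was lower (median 0.33). Neither list had a marker past the 2-fold rule. The libraries also stood apart by markers outside this pathway. On a list of 14 choroid plexus markers that leaves out Ttr, 11 were lower by the 2-fold rule in the cKO library. Of 5 brainstem neuron markers compared, 4 were lower. Meningeal fibroblast markers had intervals above 0 for 10 of 10, with a median log2 ratio of 0.31, and none passed 2-fold. Over all genes compared, 2.20% were lower by the 2-fold rule, 17.0% had intervals above 0 and 15.5% had intervals below 0. Reads of 4 Y-linked genes summed to 2352 in the cKO library against 7 in the control library, while the X-inactivation RNA Xist had 21 reads against 14779. By these transcripts the cKO library has a male pattern and the control library a female one, which cannot be told apart from genotype here. Of 10160 genes with at least 500 reads, most (98.0%) had log2 ratios within 0.5 of 0.

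Thyroid hormone reaches the brain across the blood-brain barrier and the choroid plexus, the epithelium that makes cerebrospinal fluid. Transthyretin carries the hormone in that fluid, and membrane transporters bring it into cells. The deiodinase DIO2 turns the prohormone T4 into active T3, and DIO3 inactivates both. T3 binds the nuclear receptors THRA and THRB, which control target genes such as Klf9 and Hr. In the rodent cerebellum the hormone is known to time granule cell migration and Purkinje cell dendrite growth after birth.

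Both deiodinases are selenoproteins, and the sequences around their active-site codon show what the pair shares. In both genes a TGA codon within the coding sequence is translated as selenocysteine. The TGA is in capitals, with 30 coding bases on either side, from the GENCODE vM21 transcripts of mouse chromosome 12 (GRCm38). It is codon 130 of Dio2 and codon 170 of Dio3, and Dio2 has another such TGA at codon 263 of 266.
Dio2: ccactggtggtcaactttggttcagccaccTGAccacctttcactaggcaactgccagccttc
Dio3: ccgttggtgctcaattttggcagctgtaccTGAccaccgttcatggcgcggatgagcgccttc
The longest run of identical bases between any annotated transcripts of these genes was 11.

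The receptor genes are closer relatives, which matters for counting reads. The most similar 60-base windows of their longest coding sequences are shown, with the 4 differing bases in capitals. Thra lies on chromosome 11 and Thrb on chromosome 14.
Thra: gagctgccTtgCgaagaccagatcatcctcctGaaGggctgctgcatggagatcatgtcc
Thrb: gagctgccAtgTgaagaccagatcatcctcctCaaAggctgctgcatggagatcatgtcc
Within these windows 93.3% of bases were identical. The longest run shared by any of their transcripts was 26 bases, so a longer exact match names 1 gene or the other. The sources used here do not state the read length.

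**Figure D1:**
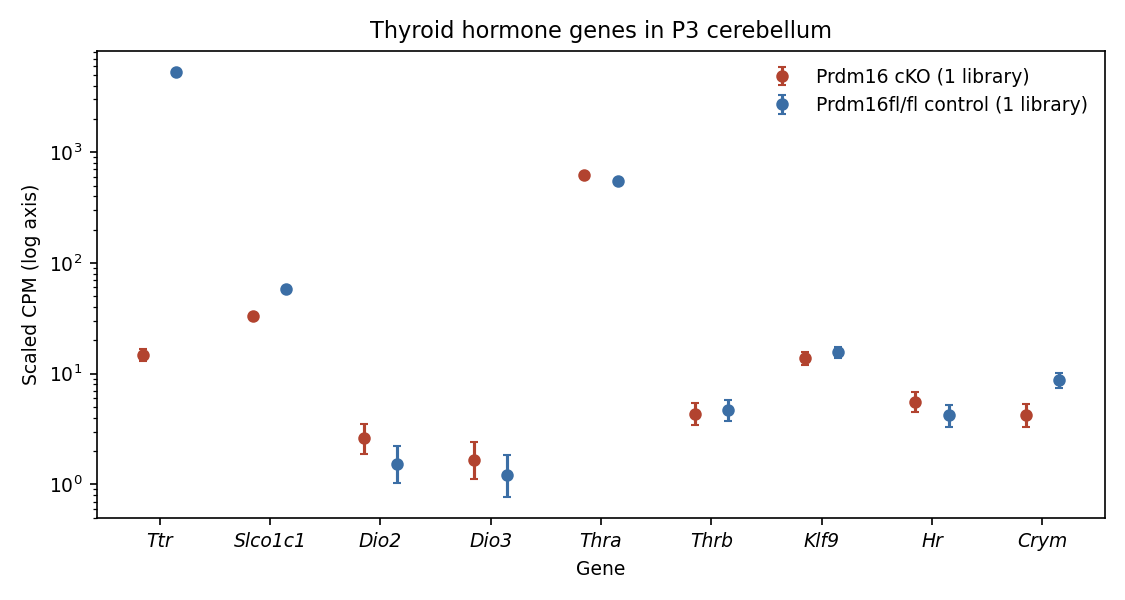
Scaled CPM (counts per library total, log axis) of the 9 genes in the 1 cKO library (red) and the 1 control library (blue), with exact Poisson 95% intervals as bars. Ttr stands at 14.8 CPM in the cKO library and 5269 CPM in the control library, whereas the intervals of the 2 libraries overlap for Dio2, Dio3, Thrb, Klf9 and Hr.

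By the 2-fold rule (a scaled ratio of at least 2 with an interval that leaves out 1), 2 of the 9 genes were lower in the cKO library, Ttr and Crym, and 0 were higher. The same rule called 3.42% of 18787 genes with at least 10 reads, 2.20% lower and 1.21% higher. The 9 genes were chosen from this contrast, so their count is not read against that background. The median log2 ratio was -0.11 over the 9 genes and 0.01 over all genes compared. At a 1.5-fold rule, which called 6.18% of all genes (3.92% lower and 2.26% higher), Ttr, Crym and Slco1c1 were lower and Dio2 was higher. In the authors' deposited table, Ttr and Crym were marked significant and the other 7 were not. The mark does not follow the deposited adjusted p-value alone, which was smaller for the unmarked Slco1c1 and Thra than for Crym. The 2 marked genes were also the only ones of the 9 with deposited log2 ratios past 1 in size (-8.50 and -1.08). Slco1c1 followed at -0.86. The marks come from the same 2 columns without replicates, so they are no separate check of the rule used here.

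The carrier came first in size. Ttr, which encodes transthyretin, had 257 reads in the cKO library against 99032 in the control library, or 14.8 CPM (13.1 to 16.8) against 5269 CPM (5236 to 5302). It took 0.00147% of all gene reads in the cKO library and 0.532% in the control library, where it ranked 6 among all genes by reads. Its log2 ratio of -8.47 (-8.65 to -8.30) is a 355-fold lower level, and 1 of the 10160 well-covered genes, Xist, had a lower ratio. The genes with at least 50 reads nearest to it in log2 ratio over the 2 libraries were Xist, the bicarbonate transporter gene Slc4a5 and Prr32, 0.87, 0.92 and 0.96 away.

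Ttr was lower than each of the 14 other choroid plexus markers, whose ratios ran from -7.55 (Slc4a5) to -0.13 (Prlr), with a median of -3.73. Summed, those markers had 7429 reads in the cKO library against 22837 in the control library, and none was at 0 in either. For each read on the list there were 0.0346 Ttr reads in the cKO library and 4.34 in the control library. The water channel gene Aqp1 (-4.85) and the folate receptor gene Folr1 (-4.68) were low in the cKO library, whereas Enpp2 at 2256 against 7625 reads and Igfbp2 at 4393 against 6950 reads made up most of the list's cKO reads. In bulk RNA, fewer cells of a type and less RNA per cell cannot be told apart. What part the amount of choroid plexus in each dissection plays in the Ttr value was not tested.

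Slco1c1 encodes OATP1C1, a T4 transporter of rodent brain capillaries, astrocytes and choroid plexus. It had 569 reads in the cKO library against 1099 in the control library, or 32.9 CPM (30.2 to 35.7) against 58.5 CPM (55.1 to 62.0). This 1.78-fold lower level, -0.83 as a log2 ratio (-0.98 to -0.68), does not reach 2-fold even at the far end of its interval, 1.97-fold. Of the 10160 genes with at least 500 reads, 53 had a lower ratio. Its nearest genes by ratio, each within 0.01, were Tmem108, Ccl6 and Fap.

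The promoter window of Slco1c1 is shown because, among the members lower at 1.5-fold, only Ttr had more reads over both libraries. No window was found for Ttr or Crym. It covers chr6:141524104-141524403 on the plus strand of GRCm38.p6, from RefSeq, 250 bases before to 50 after the start.
Slco1c1: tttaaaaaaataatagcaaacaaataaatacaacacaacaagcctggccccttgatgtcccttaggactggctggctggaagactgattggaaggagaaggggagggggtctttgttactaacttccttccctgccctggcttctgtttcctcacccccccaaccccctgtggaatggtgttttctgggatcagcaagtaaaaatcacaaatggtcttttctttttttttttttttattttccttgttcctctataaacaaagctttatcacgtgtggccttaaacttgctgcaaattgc
The receptor half-site AGGTCA, searched on both strands, is not among these letters. It occurs in 16.3% of 32851 such windows, and in 1 of the 6 windows found for 5 of the 9 genes, at Thrb. The direct repeat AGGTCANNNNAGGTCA, which overlaps the half-site by construction, occurs in 0.0152% of all windows and in 0 of the 6.

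Marker lists of endothelial cells and astroglia had medians close to 0. None of 15 brain endothelial markers passed the 2-fold rule, their median log2 ratio was 0.05, and they ran from the endomucin gene Emcn at -0.37 (-0.63 to -0.11) to the lipid transporter gene Mfsd2a at 0.25 (0.07 to 0.42). Summed endothelial reads were 11260 in the cKO library against 11907 in the control library, with no marker at 0. Slco1c1 reads per endothelial read were 0.0505 in the cKO library and 0.0923 in the control library, a ratio of 0.547 (0.492 to 0.608). For astrocytes and Bergmann glia the marker median was -0.02 with 0 of 14 past the rule. The markers ran from the bicarbonate cotransporter gene Slc4a4 at -0.42 (-0.51 to -0.32) to Gdf10 at 0.26 (0.21 to 0.30). Intervals lay below 0 for 5, among them Slc1a2 (-0.41), Gfap (-0.41) and Aqp4 (-0.29), and above 0 for 5. Over all genes compared these shares were 15.5% and 17.0%. Of the 70326 astroglial reads in the cKO library, Slc1a3 had 16977 and Fabp7 had 16666. Slco1c1 reads per astroglial read were 0.00809 in the cKO library and 0.0142 in the control library, a ratio of 0.569 (0.513 to 0.630). Choroid plexus epithelium, which also carries the transporter, had the marker median of -3.73 given above, and its part in the Slco1c1 value was not tested.

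Of 14 other proteins known to move thyroid hormone, 10 genes were in the table and 9 had at least 10 reads. By the 2-fold rule 1 was lower and 0 were higher, which leaves 8, and the list had a median log2 ratio of -0.21 against 0.01 for all genes compared. Intervals lay below 0 for 4 and above 0 for 2, beside 15.5% and 17.0% of all genes compared. The one past the rule was Slc16a10, which encodes MCT10, a transporter of T3 and aromatic amino acids. It had 59 reads in the cKO library against 181 in the control library and a log2 ratio of -1.50 (-1.95 to -1.07). Next lowest was the organic anion transporter gene Slco1a5, with 21 against 40 reads and a log2 ratio of -0.81 (-1.65 to -0.02).

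The LAT amino acid transporter subunits, which also carry thyroid hormone, differed by small amounts in both directions. Slc7a5, the light chain of LAT1, had 8354 reads in the cKO library against 7991 in the control library, with a log2 ratio of 0.18 (0.14 to 0.23). The heavy chain Slc3a2 stood at 0.10 (0.04 to 0.16), and the LAT2 light chain Slc7a8 at -0.27 (-0.42 to -0.12). The organic anion transporter gene Slco2b1 at 0.22 (-0.00 to 0.45) was the highest of the 9. The plasma carriers Alb and Serpina7 have no row in the table.

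**Figure D2:**
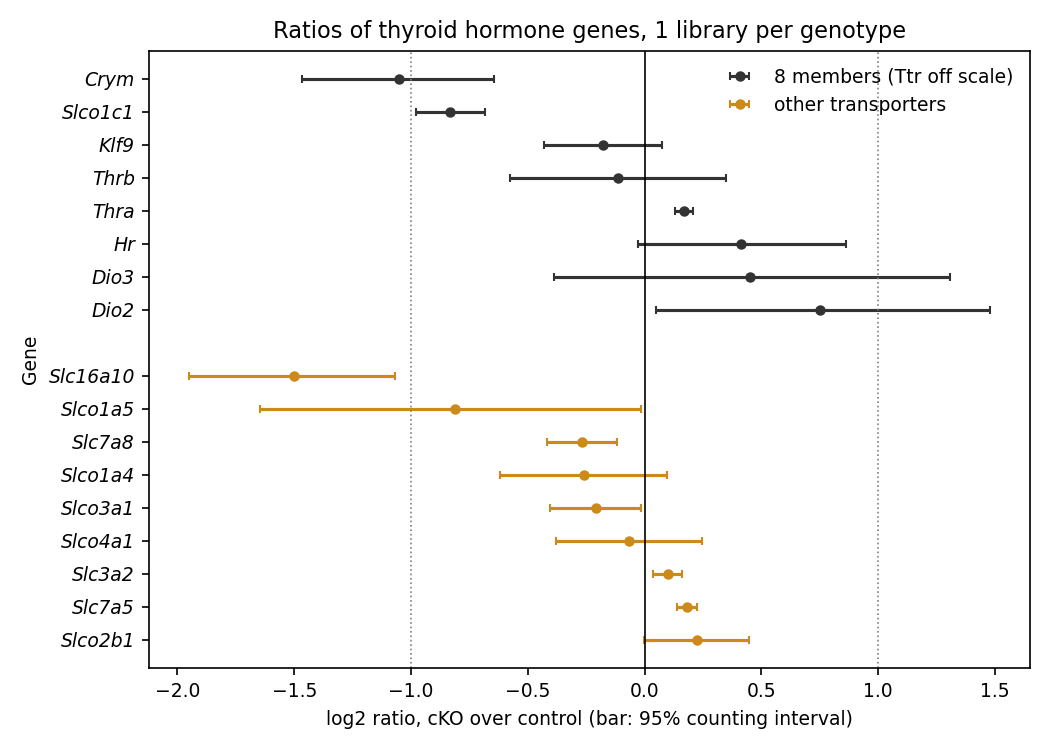
Log2 ratio of the cKO over the control library (x axis) for 8 of the 9 genes (black) and 9 other hormone transporters (orange), with 95% counting intervals as bars. Dotted lines mark 2-fold. Ttr, at -8.47, lies outside the axis. Slco1c1 stands at -0.83, and Slc16a10 lower at -1.50.

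The deiodinases were scarce in both libraries. Dio2 had 45 reads in the cKO library against 29 in the control library, or 2.60 CPM (1.90 to 3.48) against 1.54 CPM (1.03 to 2.22). Its log2 ratio was 0.75 (0.05 to 1.48), a 1.68-fold higher level whose interval starts just above 0. Dio3 had 29 reads in the cKO library against 23 in the control library, or 1.67 CPM (1.12 to 2.40) against 1.22 CPM (0.78 to 1.84). Its log2 ratio of 0.45 (-0.39 to 1.31) was not distinguishable from 0 at this depth. Nearest to Dio2 by ratio, each within 0.01, were Klhl4, Gm9762 and Gpr160.

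Read numbers of different genes compare only per length, given here as CPM per kilobase of exon (RPKM). On that scale Dio3 stood above Dio2 in both libraries. Dio3 had 0.825 RPKM in the cKO library and 0.603 in the control library, and Dio2 had 0.447 and 0.265. Per length, the ratio of Dio2 to Dio3 was 0.542 in the cKO library and 0.440 in the control library. The cKO ratio over the control ratio, in which length cancels, was 1.23 (0.562 to 2.68), so no shift was detectable with so few reads. The annotation places 100 exon bases of Gm26512 opposite Dio2, and that gene has no row in the table.

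Genes of deiodination and hormone clearance differed by less than 2-fold where compared. On a list of 15 genes for deiodination, selenocysteine insertion and hormone clearance, 13 were in the table and 12 were compared. By the 2-fold rule 0 were higher and 0 lower, with a median log2 ratio of 0.07. Intervals lay below 0 for 4 and above 0 for 2, beside 15.5% and 17.0% of all genes compared. Among the list's genes with at least 50 reads, Usp33 and March6 were the lowest. Usp33, a deubiquitinase of DIO2, had 367 reads in the cKO library against 548 in the control library (-0.46, -0.66 to -0.27). March6, the ubiquitin ligase also called TEB4, had 2365 against 3486 reads (-0.44, -0.52 to -0.37). The other genes of DIO2 ubiquitination on the list were nearer 0, with Usp20 at -0.14 (-0.27 to -0.01) and Wsb1 at 0.05 (-0.03 to 0.13). The selenocysteine tRNA factors Trnau1ap (0.32, 0.15 to 0.48) and Pstk (0.29, 0.05 to 0.52) were the highest with at least 50 reads. Iyd, an iodotyrosine deiodinase gene with 28 reads in the cKO library against 19 in the control library, stood at 0.68 (-0.21 to 1.60). Dio1, the deiodinase of liver and kidney, has no row in the table.

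The receptors differed greatly in level and little between libraries. Thra had 10755 reads in the cKO library against 10391 in the control library, or 621 CPM (609 to 633) against 553 CPM (542 to 564). In log2 units the ratio was 0.17 (0.13 to 0.21), a 1.12-fold higher level whose interval lay above 0, as it did for 17.0% of all genes compared. Thrb, the receptor that appears later in rodent brain development, had 75 reads in the cKO library against 88 in the control library, or 4.33 CPM (3.41 to 5.43) against 4.68 CPM (3.75 to 5.77). Its log2 ratio of -0.11 (-0.58 to 0.35) was not distinguishable from 0.

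Corrected for length, Thra was 230-fold above Thrb in the cKO library and 189-fold above it in the control library. The ratio of the 2 read balances was 1.21 (0.881 to 1.68). The counts of Thra hold all its isoforms, including the alpha-2 form that does not bind T3. Its 3' end overlaps Nr1d1, a clock repressor gene on the opposite strand, over 263 exon bases. The sources used here do not say whether counting used strand, so reads from that overlap cannot be assigned. Nr1d1 had 282 reads in the cKO library against 403 in the control library (-0.40, -0.62 to -0.17).

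The receptors' partners were nearly level between libraries. Of 16 partners and coregulators, all were compared, 0 passed the 2-fold rule in either direction and the median log2 ratio was -0.10. Intervals lay below 0 for 7 and above 0 for 1, beside 15.5% and 17.0% of all genes compared. The coactivators Ncoa2 (-0.35, -0.47 to -0.24) and Kat2b (-0.25, -0.44 to -0.06) were the lowest. The corepressor subunit Gps2 (0.39, 0.28 to 0.49) and the coactivator Ncoa6 (0.02, -0.06 to 0.11) were the highest.

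The response genes among the members showed no common direction. Klf9, a zinc finger factor induced directly by T3 in rodent neurons, had 238 reads in the cKO library against 292 in the control library, or 13.7 CPM (12.1 to 15.6) against 15.5 CPM (13.8 to 17.4). This is a log2 ratio of -0.18 (-0.43 to 0.07). Hr, the T3-induced corepressor hairless, had 97 reads in the cKO library against 79 in the control library, or 5.60 CPM (4.54 to 6.83) against 4.20 CPM (3.33 to 5.24). Its log2 ratio was 0.41 (-0.03 to 0.86). The intervals of both genes include 0, with point values on opposite sides of it.

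A wider list of 20 genes reported to respond to thyroid hormone in the developing brain was also examined. All 20 were compared, 0 passed the 2-fold rule in either direction, and the median log2 ratio was 0.02. Intervals lay above 0 for 6 and below 0 for 2, beside 17.0% and 15.5% of all genes compared. The Purkinje cell gene Pcp2, with 552 reads in the cKO library against 367 in the control library, was the highest (0.71, 0.51 to 0.90). Gbp3 followed at 0.39 (-0.30 to 1.09). Bdnf, a neurotrophin gene with 28 against 41 reads, was the lowest (-0.43, -1.18 to 0.30), and the calcium/calmodulin kinase gene Camk4 stood at -0.26 (-0.38 to -0.15). Pcp2 is also on the Purkinje cell list, whose 10 genes had a median of 0.33 with 0 past the rule, and the part of Purkinje cell RNA in its value was not tested.

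**Figure D3:**
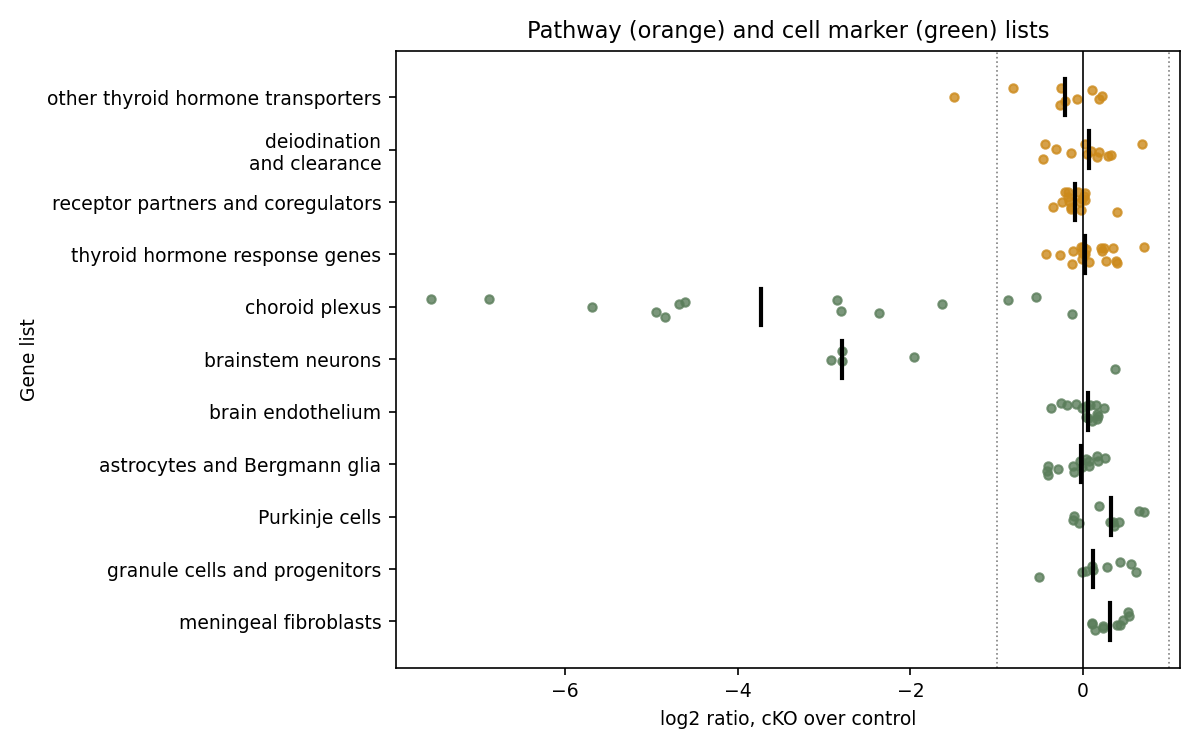
Log2 ratio of the cKO over the control library (x axis) for each gene with at least 10 reads of 4 hormone pathway lists (orange points) and 7 cell marker lists (green points), with the list median as a black bar and dotted lines at 2-fold. The choroid plexus and brainstem medians of -3.73 and -2.79 stand to the left of the other 9 lists drawn, whose medians lie between -0.21 and 0.33.

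Crym encodes mu-crystallin, a cytosolic protein that binds T3. It had 73 reads in the cKO library against 164 in the control library, or 4.21 CPM (3.30 to 5.30) against 8.73 CPM (7.44 to 10.2). Its log2 ratio of -1.05 (-1.47 to -0.64) is a 2.07-fold lower level, just past 2-fold, with an interval from 1.56-fold to 2.77-fold. The nearest genes by ratio, each within 0.01, were Gm38020, the kinase gene Ptk2b and the collagen gene Col24a1. Of the 5 brainstem neuron markers compared, 4 were lower in the same library by the 2-fold rule, and their median was -2.79. The 5 summed to 103 reads in the cKO library against 268 in the control library, of which the choline transporter gene Slc5a7 had 70 against 59 (0.36, -0.16 to 0.89). The part of brainstem or choroid plexus tissue in the Crym value was not tested.

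Ordered by RPKM, the control library ran Ttr (4443), Thra (120), Slco1c1 (11.3), Klf9 (3.23), Crym (2.57), Thrb (0.632), Hr (0.607), Dio3 (0.603) and Dio2 (0.265). In the cKO library the order was Thra (135), Ttr (12.5), Slco1c1 (6.34), Klf9 (2.85), Crym (1.24), Dio3 (0.825), Hr (0.809), Thrb (0.585) and Dio2 (0.447). Thra thus led in the cKO library and Ttr in the control library. Dio3 and Thrb exchanged places around Hr, at levels that rest on 23 to 97 reads for each of the 3 genes, where neighbours cannot be ranked beyond counting error.

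**Figure D4:**
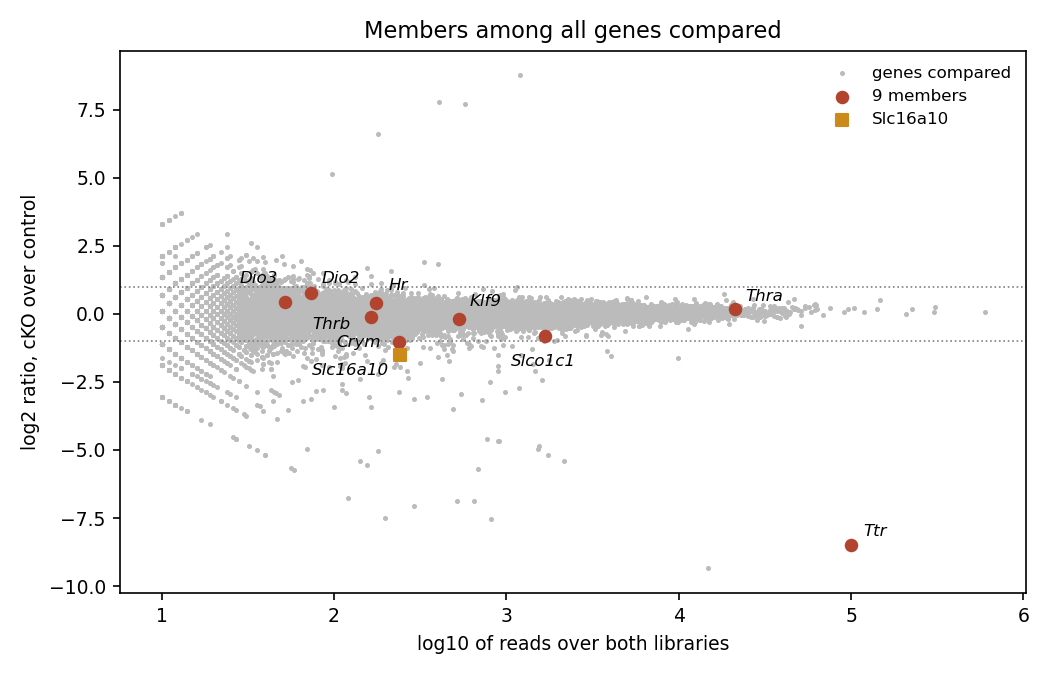
Log2 ratio of the cKO over the control library (y axis) against log10 of the reads over both libraries (x axis) for 18787 genes (grey), the 9 members (red circles) and the transporter gene Slc16a10 (orange square), with dotted lines at 2-fold. Ttr lies far below the other members at -8.47, and Slco1c1 lies at the lower edge of the genes with similar read numbers.

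Genes of hormone synthesis and its central control were barely measured. Of 12 such genes, 9 were in the table and 7 were compared. The iodide transporter gene Slc5a5, known from thyroid and also from choroid plexus, was lower with 24 reads in the cKO library against 77 in the control library (-1.56, -2.29 to -0.89). Tg, which encodes thyroglobulin, was higher with 13 against 4 reads (1.82, 0.12 to 3.89). Trh had 17 reads in the cKO library against 18 in the control library, and Tshb had 16 against 15.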

How the data were processed

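Total RNA of postnatal day 3 cerebellum was sequenced, per the labels. Among the tools, HTSeq 0.6.0, TopHat2 2.0.12 and Bowtie2 2.2.3 are listed without roles in the submitters' processing notes, with the build mm9. The deposited table gives raw read counts per gene, per the file headers. The authors' normalized values are on the CPM scale: 44846 of 44846 equalled the count times 1 factor per column (relative tolerance 0.0001, a count of 0 set to 0.5). The deposited fold change is the ratio of these values, and its log2 column the logarithm. The deposited p-values compare 2 columns and were used only to describe the authors' marks. No per-sample column was left unused.

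Counts were scaled by TMM (edgeR 4.0.16, R 4.3.3), and DESeq2 1.42.0 size factors were an alternative. The rest used scipy 1.17.1, numpy 2.4.6, pandas 2.3.3 and matplotlib 3.10.9 under Python 3.11.15. Compared were the 18787 genes whose reads in both libraries summed to 10 or more. CPM carry exact Poisson intervals and ratios exact binomial (Clopper-Pearson) ones. A gene was called when the ratio was at least 2-fold and its interval left out 1. A count of 0 stood at 3. The ratio of 2 read balances carries a conditional exact interval. RPKM used exon lengths from GENCODE vM21 (GRCm38), found for all 9 genes. The table holds 24 symbols turned into dates, March6 among them, restored by Ensembl ID. The procedure was tested on simulated counts with Poisson counting error only, so that test says nothing of variation between animals or libraries.

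The members and the 14 lists were chosen with earlier results of these data known. Named were all members, Prdm16, the 2 highest and 2 lowest ratios of each pathway list among genes of 50 or more reads (1 and 1 for cell lists), list genes past 2-fold (for cell lists partly as counts), and the 3 genes nearest in ratio to each member past 1.5-fold. Others were chosen after their values were seen. Some list genes are not reported here and were left out of the lists' counts.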

Additional observations from a re-analysis of the deposited data

How the results depend on the processing

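No paired analysis was possible because each genotype has 1 library, and no replicate could be left out. Over 4 other scalings (DESeq2 size factors, total reads, upper quartile, and TMM without the choroid plexus, brainstem and sex-linked lists and Ttr), the ratio of each of the 9 genes kept its direction and moved by at most 0.03 on the log2 scale, with Crym between -1.08 and -1.05. The number of genes past the rule depended on its thresholds. With a minimum of 50 reads, 55 were higher and 176 lower, against 228 and 414 with the minimum of 10. At 1.5-fold, 425 were higher and 736 lower, and with 99% intervals 119 were higher and 294 lower. With the minimum of 50 reads, lower brainstem markers numbered 2 and higher genes of hormone synthesis 0, because fewer genes were compared. Depth limits Dio2, Dio3, Thrb and Hr, each with under 100 reads per library.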
